A study of Homo sapiens with 4 samples.

Results

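The SR and TRA2 splicing factors examined here are 10 genes, SRSF1 to SRSF7, SRSF10, TRA2A and TRA2B, chosen by symbol as genes known for conserved poison exons or introns in the 3′ UTR. All 10 were found among the 15942 genes of the deposited table, and all 10 passed the filter on low counts, which kept 15557 genes. H9 is a widely used line of human embryonic stem cells, grown here on Matrigel in E8-supplemented medium. The cells had received a small interfering RNA (siRNA) against UPF1 or, as control, an siRNA against luciferase (siLuc), a target that human cells lack. There were 2 siUPF1 libraries and 2 siLuc libraries. The treatment text given for every library speaks of an siRNA against UPF3A and of an actinomycin D time course instead, so the time of sampling and any actinomycin D exposure of these libraries are not known. Whether the libraries of a group were separate cultures is not stated, so p-values cover only how far these libraries differ, possibly for technical reasons.

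SR proteins bind exonic enhancer sequences through RNA recognition motifs and recruit the spliceosome through a tail rich in arginine and serine, and TRA2 proteins are close relatives with the same kind of tail. Most of these genes regulate themselves: when the protein is abundant, their own transcript is spliced to include a poison exon with a premature stop codon, or to remove an intron behind the normal stop. Both kinds of transcript are known substrates of nonsense-mediated decay (NMD), which needs the helicase UPF1. The counts compared below are given per gene and do not separate its transcripts, so they do not show the share of its poison-exon form. Whether they cover all RNA of each gene is not known, because the transcripts listed for some genes leave out the NMD forms.

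The reference annotation (GENCODE release 29) gives each of the 10 genes at least 1 transcript of the NMD class, 21 in all. It grades the support of a transcript from 1 (strongest) to 5 (weakest), and the only NMD transcripts of SRSF5 and TRA2B have level 5. An NMD transcript was annotated for 41.1% of the 13476 tested coding genes that could be matched by symbol. The 10 genes were chosen for poison exons or 3′ UTR introns, so a higher share among them, here and below, comes with the choice and is no result. The stop codons of the 21 lay 57 to 1138 nt ahead of the last exon junction, all farther than the 50 nt that defines the class. In 9 of them, from SRSF3, SRSF4, SRSF6 and SRSF7, the stop lay in an exon that no complete coding transcript of the gene overlaps, which is the layout of a poison exon and was present in 16.7% of the matched genes. In 6, from SRSF1, SRSF2, SRSF5 and TRA2B, the stop was one also used by a complete coding transcript, with introns spliced behind it. The stop of SRSF1-204 stood 824 nt ahead of the last junction with 1 intron behind it. That of TRA2B-206 lay in exon 2 of 10 with 8 introns behind it, so sharing a stop does not show that it is the gene's main stop. SRSF10 and TRA2A had only NMD transcripts of neither layout. For these genes, and for TRA2B, which had no stop in an exon of its own, the poison-exon label rests on knowledge outside this annotation.

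**Figure D1:**
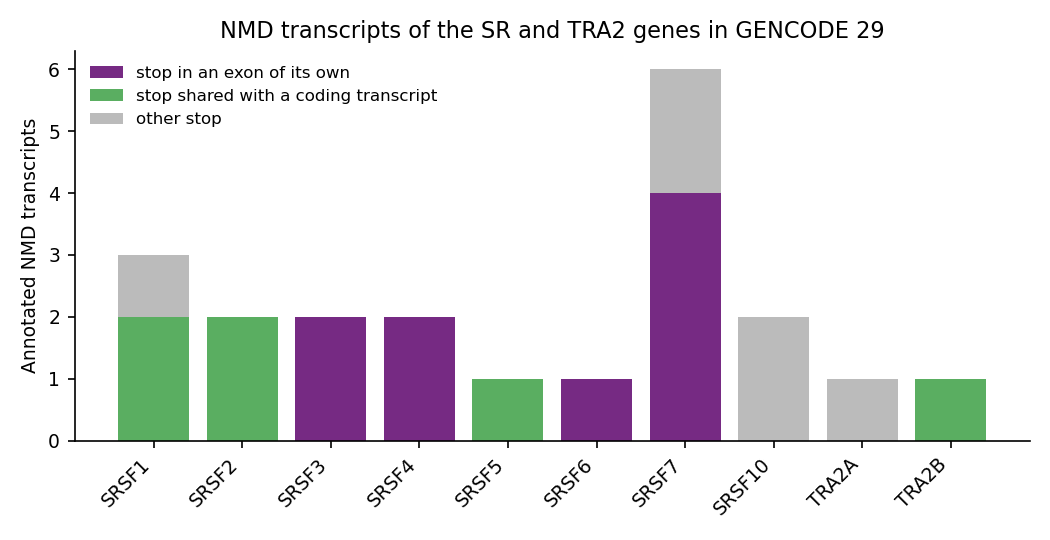
Number of NMD-class transcripts annotated for each of the 10 genes (y axis), stacked by where the stop codon lies. SRSF7 has the most, 6, of which 4 stop in an exon of their own, while SRSF10 and TRA2A have only stops of another kind.

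The ends of 4 reading frames that stop in an exon of their own, with later exon junctions behind the stop, are shown. Each is the last 30 coding bases of the annotated transcript, 5′ to 3′, from the GENCODE transcript sequences, with the premature stop codon in capitals.
SRSF3-203: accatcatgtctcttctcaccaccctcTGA
SRSF4-206: ggagaggttcggttcttacaaggaaaaTGA
SRSF6-202: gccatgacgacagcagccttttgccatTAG
SRSF7-204: aggtttcttcgtttgagtcagtcgcctTGA
The exon of SRSF3-203 is 456 nt long and its frame ends 34 nt into it. The exons of SRSF4-206, SRSF6-202 and SRSF7-204 measure 175, 268 and 449 nt, and their frames end 56, 152 and 28 nt into them. In SRSF7-204 the first 2 of the printed bases belong to the exon before. The support level is 5 for SRSF3-203, 1 for SRSF4-206 and 2 for SRSF6-202 and SRSF7-204. Of the transcripts the deposited table lists, 4 match an NMD transcript in GENCODE, namely SRSF1-204, SRSF2-204, SRSF3-203 and SRSF6-202. For SRSF4, SRSF5, SRSF7, TRA2A and TRA2B the table lists protein-coding RefSeq transcripts only, and the sources used here do not say whether reads from exons outside these were counted.

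Depth was 10058515 and 11200973 counts in siUPF1 replicates 1 and 2, against 8887239 and 9937231 counts in siLuc a and b (names given here because the table heads both siLuc columns alike). UPF1 itself had 608 and 878 counts in the siUPF1 libraries and 1936 and 2053 counts in siLuc a and b, or 69.5 ± 12.3 CPM after UPF1 siRNA and 212 ± 10.1 CPM in siLuc (CPM, counts scaled to a library total of 1e+06 after TMM normalization; SD, n = 2 each). Its RNA stood at 32.9% of the siLuc level (log2 fold change -1.60, SE 0.07, Benjamini-Hochberg adjusted p = 1.06e-102 in edgeR's quasi-likelihood test). The 8 markers of undifferentiated cells that were looked up, POU5F1 and NANOG among them, were all found, with a summed level of 1500 to 1629 CPM in the siUPF1 libraries and 1750 to 1882 CPM in the siLuc libraries. Of 6 fibroblast markers the table lists 3, with sums of 337 to 349 CPM in siUPF1 and 324 to 336 CPM in siLuc. Their part in the results was not tested.

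After UPF1 siRNA none of the 10 genes rose, 2 fell and 8 did not pass (edgeR quasi-likelihood test, Benjamini-Hochberg adjusted p of 0.05 over all tested genes). Of all tested genes 16.8% rose and 9.14% fell (8.35% and 3.05% with DESeq2). All 10 genes had over 0.25 reads per transcript base, and of the 5431 tested genes over that density 8.38% rose and 9.22% fell (edgeR). At an unadjusted p under 0.05 the counts of the 10 were 0 risen and 4 fallen, and DESeq2 called 0 either way (0 risen and 1 fallen unadjusted). The share of all tested genes at an unadjusted p was not counted, so the unadjusted counts here and below have no background. SRSF2 and SRSF5 were the genes that fell, to 86.3% and 86.9% of the siLuc level. The median log2 fold change was -0.13 over the 10 genes and -0.0075 over all tested genes, with 7 genes below 0 and SRSF10, TRA2A and TRA2B above 0. Both siUPF1 libraries lay below both siLuc libraries for 6 genes and above both for TRA2A, against 31.1% and 32.3% of all tested genes. Of the 5431 denser genes, 2258 lay below in this way and 1122 above.

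**Figure D2:**
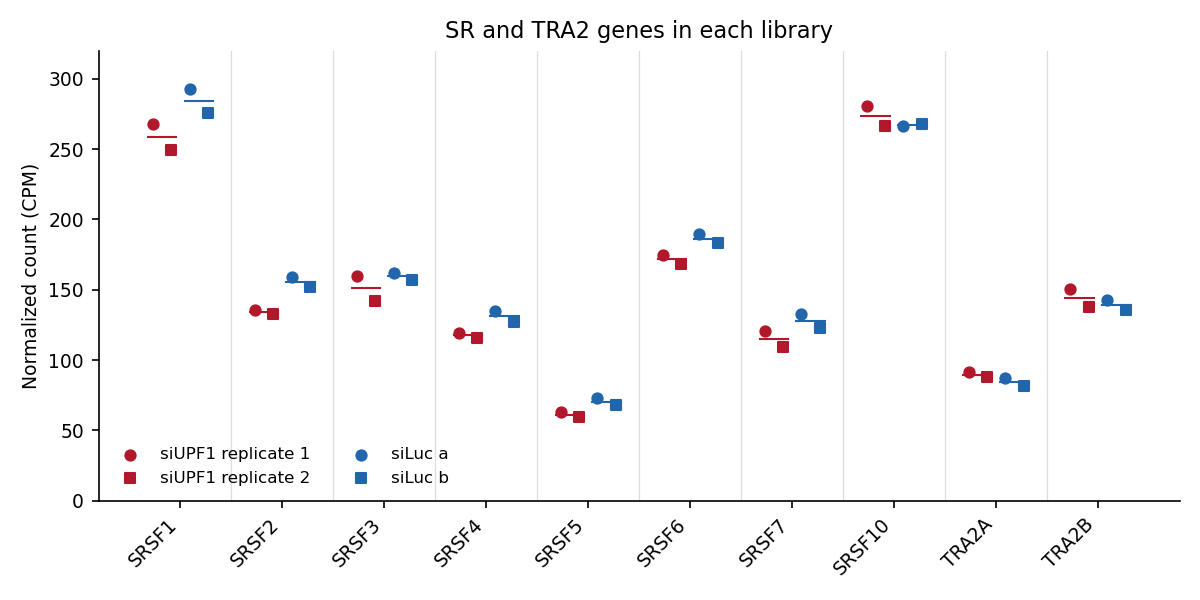
Normalized count (CPM, y axis) of each gene in siUPF1 replicates 1 and 2 (red) and in siLuc a and b (blue), with a line at each group's mean of 2 libraries. The groups stand close together for every gene, with means between 61.2 and 284 CPM.

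SRSF1, the founding SR protein, and SRSF2, a core factor of exon definition, are the best known cases of autoregulation by splicing behind the normal stop. SRSF2 had 1354 and 1493 counts, or 135 and 133 CPM, in siUPF1 replicates 1 and 2, against 1407 and 1522 counts, or 159 and 152 CPM, in siLuc a and b. Both siUPF1 libraries were below both siLuc libraries, and SRSF2 fell, with a log2 fold change of -0.21 (SE 0.07, edgeR adjusted p = 0.0136). Its annotated exons overlap those of MFSD11 on the other strand, which stood at 41 and 38.4 CPM in siUPF1 and 33.7 and 36 CPM in siLuc, and whether counting used strand is not given, so reads of the pair may be mixed. SRSF1 had 268 and 250 CPM in the siUPF1 libraries and 293 and 276 CPM in the siLuc libraries. These do not overlap either, but the log2 fold change of -0.14 (SE 0.07) did not pass, with adjusted p = 0.148 (edgeR) and a 95% interval of -0.28 to 0.0033. SRSF5, an SR protein with paired RNA recognition motifs, was the lowest of the 10 by counts, 631 and 666 in siUPF1 and 647 and 679 in siLuc. In CPM it had 63.1 and 59.3 after UPF1 siRNA and 73.2 and 67.7 in siLuc, without overlap, and it fell, with a log2 fold change of -0.20 (SE 0.08, edgeR adjusted p = 0.0471). Both calls were lost without siLuc a (SRSF2 adjusted p = 0.274, SRSF5 0.473) and without siLuc b (0.071 and 0.101), and SRSF5 also without siUPF1 replicate 2 (0.18; log2 fold change -0.16).

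SRSF3, SRSF4, SRSF6 and SRSF7 carry the poison exons in which the printed reading frames end. SRSF3, the smallest SR protein, which also helps to export mRNA from the nucleus, had 160 and 142 CPM in siUPF1 replicates 1 and 2 and 162 and 157 CPM in siLuc a and b. Replicate 1 lay within the siLuc range and replicate 2 below it, so the groups overlap, and the log2 fold change of -0.08 (SE 0.07) did not pass (adjusted p = 0.427, edgeR). SRSF7, which resembles SRSF3 and carries in addition a zinc knuckle, had 121 and 109 CPM in the siUPF1 libraries and 133 and 123 CPM in the siLuc libraries. SRSF4 had 119 and 116 CPM in the siUPF1 libraries and 135 and 127 CPM in the siLuc libraries. Neither gene's groups overlap, and neither gene passed. SRSF7 stood at -0.15 (SE 0.07, adjusted p = 0.0937, edgeR) and SRSF4 at -0.16 (SE 0.07, adjusted p = 0.0899, edgeR). With DESeq2 the adjusted p was 0.332 for SRSF7 and 0.286 for SRSF4. SRSF7 passed without siUPF1 replicate 1 (-0.23, adjusted p = 0.0122), while it stood at -0.08 without replicate 2 (adjusted p = 0.461) and at -0.10 without siLuc a (0.627; all edgeR). SRSF6, a relative of SRSF4 and SRSF5, had 175 and 169 CPM in the siUPF1 libraries and 190 and 183 CPM in the siLuc libraries, without overlap. Its log2 fold change of -0.12 (SE 0.07) did not pass (adjusted p = 0.221, edgeR).

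SRSF10, an SR protein known to repress splicing when it loses its phosphates in mitosis or heat shock, was listed with 9 RefSeq transcripts, more than any other of the 10. It had 281 and 267 CPM in siUPF1 replicates 1 and 2 and 267 and 268 CPM in siLuc a and b, and replicate 2 stood at the siLuc level (log2 fold change 0.04, SE 0.07, adjusted p = 0.755, edgeR). TRA2A and TRA2B are the human counterparts of the fly sex-determination factor transformer-2, and TRA2B is known to promote inclusion of its own poison exon. TRA2A had 913 and 987 counts, or 91.3 and 87.9 CPM, in the siUPF1 libraries, against 771 and 819 counts, or 87.2 and 81.7 CPM, in the siLuc libraries. It was the gene of the 10 with the highest log2 fold change, 0.09 (SE 0.07), and it did not pass (adjusted p = 0.422, edgeR), although both siUPF1 libraries were above both siLuc libraries. TRA2B had 150 and 137 CPM in the siUPF1 libraries and 143 and 135 CPM in the siLuc libraries, which overlap (0.05, SE 0.07, adjusted p = 0.662, edgeR). Without siUPF1 replicate 1 SRSF10 stood at -0.0023 and TRA2B at -0.02, and without replicate 2 SRSF3 stood at 0.0059, so the sign of each depended on 1 library.

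The intervals bound how far the counted RNA of these genes could have moved on the test's terms. The highest upper limit of the 95% intervals was TRA2A's, a log2 fold change of 0.23 or 1.18-fold, and the lowest lower limit was SRSF5's, -0.36 or 77.9% of the siLuc level. The intervals of 6 genes include 0. They rest on a spread that the test shared almost fully across genes, with 2 libraries per group, and on scaling between libraries.

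**Figure D3:**
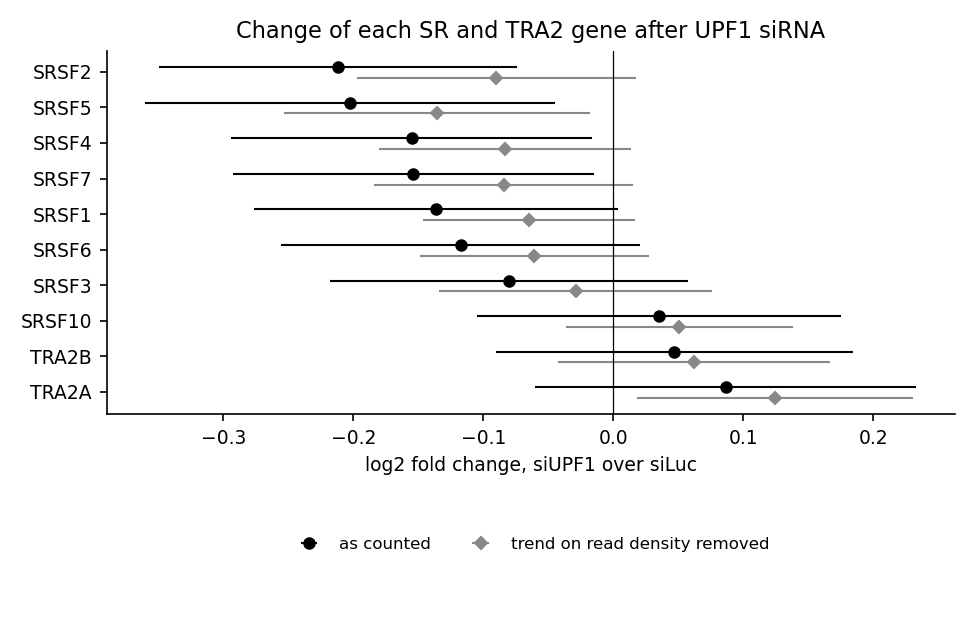
Log2 fold change of siUPF1 over siLuc (x axis) for each gene with its 95% interval, from the counts as deposited (black circles) and with each library's trend on read density removed (grey diamonds). The black circles run from -0.21 for SRSF2 to 0.09 for TRA2A, and every diamond lies to the right of its circle.

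The level of each gene per length, in CPM per kilobase of the transcript length behind the deposited RPKM values, differed more between genes than between groups. SRSF2 was highest, at 61.6 ± 0.797 CPM per kilobase after UPF1 siRNA and 71.3 ± 2.38 CPM per kilobase in siLuc (SD, n = 2 each), and its libraries did not overlap with the next gene's in either group. SRSF1, SRSF4, SRSF7 and SRSF5 came next, at 44.4 to 47.1 CPM per kilobase on average in siUPF1 and 51.2 to 52 in siLuc, with overlap between each and the next. SRSF6 and SRSF3 followed at 43 and 42.4 CPM per kilobase in siUPF1, where they overlap, and at 46.6 and 44.8 in siLuc, where they do not. TRA2A had 40.3 ± 1.09 CPM per kilobase in siUPF1 and 38 ± 1.76 in siLuc. SRSF10 and TRA2B were lowest and overlapped in both groups, at 33.6 each in siUPF1 and at 32.8 and 32.6 in siLuc. In this order the 3 genes with a fold change above 0 were the 3 at the bottom. Level per length is, apart from scaling, the read density taken up next, so this is no observation separate from the density trend.

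All 10 genes were densely covered, with 0.331 (TRA2B) to 0.662 (SRSF2) reads per transcript base on average, where the median of all tested genes was 0.172. No tested gene exceeded 1.12 reads per base. The sources used here do not say whether reads at one position were counted once, and the part of this in the values was not tested. Density moved with the fold change in the whole table. The 5431 tested genes over 0.25 reads per base had a median log2 fold change of -0.06, and the 10126 at or under it had a median of 0.05. Density also went with the shift between the libraries of a group, which differ in depth. From siUPF1 replicate 1 to 2 the median shift was -0.072 for the denser genes and 0.064 for the others. From siLuc a to b it was -0.055 and 0.055. With 1 pair of libraries per group, depth cannot be told apart from other differences between them. All 10 genes were lower in siUPF1 replicate 2, the deeper library, than in replicate 1, by 0.03 to 0.17 on the log2 scale (median -0.08), and 9 were lower in the deeper siLuc b than in siLuc a (median -0.08). Beside these shifts within a group stands the median of -0.13 between siUPF1 and siLuc. The part of density and depth in the result was not tested beyond the fit that follows.

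With each library's trend on read density removed, no SR or TRA2 gene passed in either direction (0 risen and 0 fallen with edgeR, 1 risen and 1 fallen unadjusted), against 15.3% risen and 10.5% fallen of all tested genes. Of the 5431 genes over 0.25 reads per base, 686 rose and 384 fell in this fit. The median over the 10 genes was then -0.06. SRSF2 stood at -0.09 (SE 0.05, adjusted p = 0.193, edgeR) and SRSF5 at -0.14 (SE 0.05, adjusted p = 0.0859), while TRA2A stood at 0.12 (SE 0.05, adjusted p = 0.0826). UPF1 still fell in this fit (-1.61, adjusted p = 6.22e-05, edgeR). The same 7 genes were below 0 and the same 3 above.

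**Figure D4:**
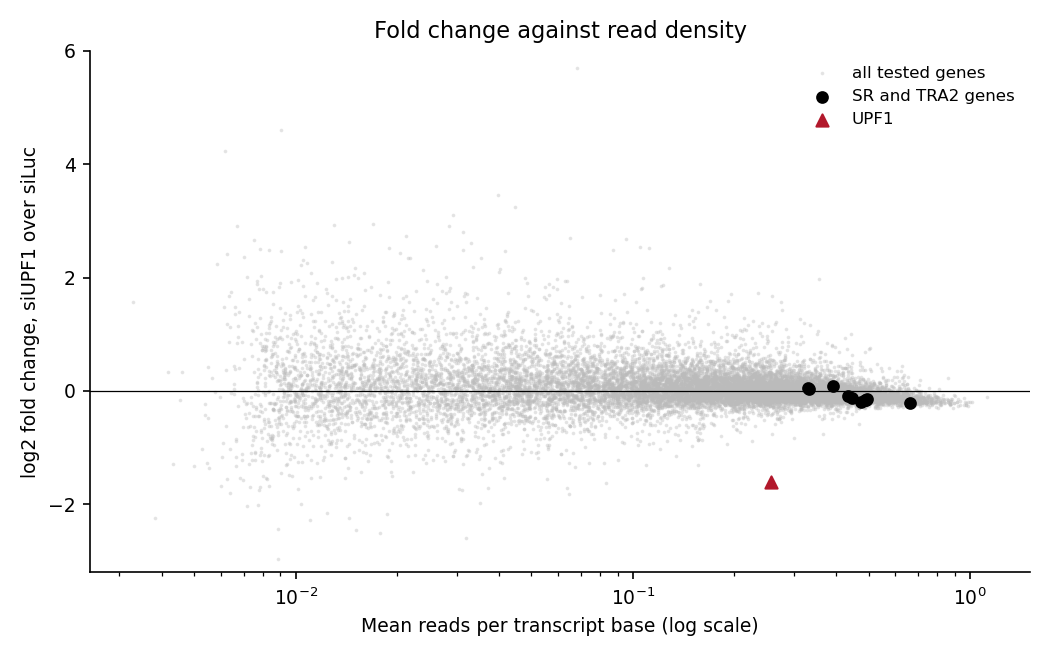
Log2 fold change of siUPF1 over siLuc (y axis) against mean reads per transcript base (x axis, log scale) for all tested genes (grey), the 10 SR and TRA2 genes (black) and UPF1 (red triangle). The 10 genes sit between 0.331 and 0.662 reads per base, at the dense end, where fold changes of all genes are narrow and mostly just below 0.

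Genes with an annotated NMD transcript were no uniform set in these counts. Of 5533 tested genes with 1 or more such transcripts, 17.7% rose and 7.05% fell, with a median log2 fold change of 0.01. Of 2250 with a stop in an exon of its own, 17.5% rose and 6.8% fell, and among all matched coding genes 16.7% rose and 9.82% fell. Whether these shares differ was not tested.

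The other 4 SR family genes were SRSF8, SRSF9, SRSF11 and SRSF12, of which 1 rose, 1 fell and 2 did not pass (median log2 fold change -0.05), and DESeq2 called 0 (1 risen and 0 fallen unadjusted). SRSF12, a divergent member of the family, was sparsely covered, at 0.0686 reads per base, and rose. It had 28.4 and 26.7 CPM in siUPF1 and 19.5 and 22.7 CPM in siLuc, without overlap (log2 fold change 0.38, SE 0.12, adjusted p = 0.0118, edgeR). SRSF9, a short relative of SRSF1, had 37.3 and 33.3 CPM in siUPF1 and 45.3 and 39 CPM in siLuc, without overlap, and fell by 0.25 (SE 0.10, adjusted p = 0.0398, edgeR). SRSF11 stood at -0.15 (SE 0.07) and did not pass (adjusted p = 0.0926, edgeR). Neither call held without siLuc a, where SRSF12 had adjusted p = 0.323 and SRSF9 0.584 (log2 fold change -0.15). With the density trend removed neither passed, SRSF12 at 0.31 (adjusted p = 0.0591) and SRSF9 at -0.15 (0.153), and SRSF9 was also lost without siUPF1 replicate 2 (0.244). SRSF9 has a pseudogene named after it, and its exons overlap those of GATC on the other strand, which had 93.2 and 89.1 CPM in siUPF1 and 78 and 86.3 CPM in siLuc.

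Kinases that phosphorylate the serines of SR proteins, with the importin gene TNPO3 that carries them into the nucleus, gave 0 risen, 1 fallen and 8 not passing of 9 tested (edgeR; 0 risen and 1 fallen unadjusted, and 0 either way with DESeq2, with the same unadjusted counts). Their median log2 fold change was -0.11. PRPF4B, a kinase of the spliceosome, fell by 0.19 (SE 0.07, adjusted p = 0.0347, edgeR), with 198 and 197 CPM in siUPF1 and 226 and 224 CPM in siLuc. It passed with the density trend removed (-0.19, adjusted p = 0.00757) but not with any 1 of the 4 libraries left out (adjusted p = 0.0507 to 0.256). DYRK1A (-0.13, SE 0.07, adjusted p = 0.163, edgeR) and SRPK1 (-0.12, SE 0.07, adjusted p = 0.228, edgeR), the next by p, did not pass. With the density trend removed 2 of the 9 fell, PRPF4B and DYRK1A (-0.14, adjusted p = 0.033, edgeR).

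Of 32 SR-related genes, whose proteins have arginine- and serine-rich stretches but are not SR proteins, 0 rose, 5 fell and 27 did not pass (edgeR; 1 risen and 13 fallen unadjusted), with a median log2 fold change of -0.11. With DESeq2 there were 0 risers and 1 faller (0 and 8 unadjusted). In edgeR 1 rose and 1 fell with the density trend removed, and 1 rose and 10 fell at an adjusted p of 0.1. CIR1, a corepressor that also binds splicing factors, fell by 0.28 (SE 0.10, adjusted p = 0.0211), SCAF4, which binds the tail of RNA polymerase II, by 0.19 (SE 0.07, adjusted p = 0.0304), and the splicing coactivator gene SRRM1 by 0.19 (SE 0.07, adjusted p = 0.0359; all edgeR). The count of fallers in edgeR was 0 without siLuc a (0 unadjusted), 0 without siLuc b (12 unadjusted), 3 without siUPF1 replicate 2 and 1 with the density trend removed, against 7 without siUPF1 replicate 1, 10 with scaling by library size alone and 10 at an adjusted p of 0.1. CIR1 stood at -0.13 without siUPF1 replicate 2 (adjusted p = 0.39, edgeR) and at -0.43 without replicate 1 (0.000315). Of 19 genes for recognition of splice sites, 2 rose, 4 fell and 13 did not pass, with a median of -0.13. U2AF1L4, a relative of the small subunit that reads the 3′ splice site, had 28.7 and 27.6 CPM in siUPF1 and 20.4 and 17.8 CPM in siLuc. It rose by 0.57 (SE 0.13, adjusted p = 8.15e-05, edgeR), and its annotated exons overlap those of AD000671.2 on the same strand and of PSENEN on the other strand. ZRSR2, which serves the minor spliceosome, rose by 0.29 (SE 0.09, adjusted p = 0.0085), and SNRNP70, which encodes a protein of the U1 particle, fell by 0.25 (SE 0.07, adjusted p = 0.00406; both edgeR). DESeq2 called 1 risen and 2 fallen, and neither ZRSR2 (adjusted p = 0.162) nor SNRNP70 (0.0731) was among them. With the density trend removed 2 rose and 2 fell, and SNRNP70 stood at -0.15 (adjusted p = 0.0622, edgeR). Without siUPF1 replicate 2 the fallers were also 2, and without replicate 1 they were 6. Without siLuc a 0 of these genes fell in edgeR (0 unadjusted) and 1 rose, and SNRNP70 had adjusted p = 0.342. Without siLuc b 0 rose (1 unadjusted) and 1 fell, and ZRSR2 and U2AF1L4 had adjusted p = 0.194 and 0.0513.

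**Figure D5:**
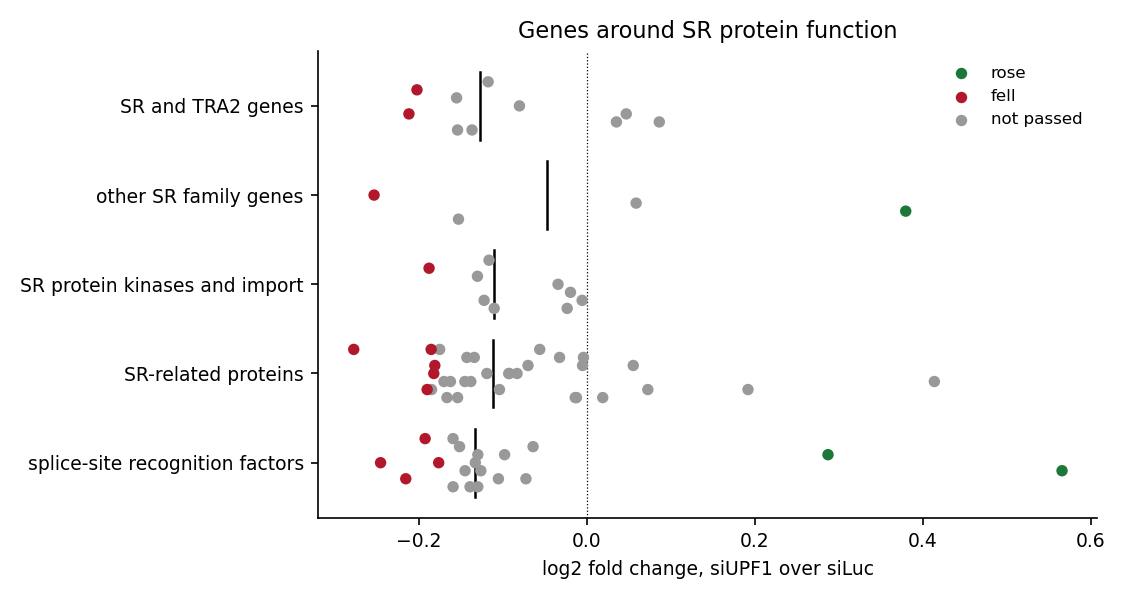
Log2 fold change of siUPF1 over siLuc (x axis) for each tested gene of the 10 SR and TRA2 genes and of the 4 further lists, coloured by call, with a black line at each median. The medians lie between -0.05 and -0.13, and the highest point is U2AF1L4 at 0.57.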

How the data were processed

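The series has a single table. It holds whole-number read counts per gene, deposited by the authors without normalization, and RPKM values (counts divided by transcript size and sequencing depth) that the authors set beside them, per the file headers. STAR, DESeq2 and the build hg19 are named without roles or versions, per the submitters' processing notes. Use of strand and treatment of repeated or multiply mapped reads are not given in the sources used here. SRSF1 and SRSF10 have pseudogenes named after them, so their counts are uncertain. The same holds for the called genes SRSF9, SRRM1, CIR1 and ZRSR2 of the other lists. Pseudogenes under other names were not looked for. Annotated exons of SRSF1 overlap AC015813.2 on the same strand and AC015813.5 on the other. Those of SRSF2 and SRSF4 overlap MIR636 and RF02271 on the same strand. Both siLuc columns carry one name and are called siLuc a and b in table order, and 2 siLuc RPKM columns were left aside. From the siUPF1 RPKM values only transcript lengths were derived.

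Counts were tested with edgeR 4.0.16 in R 4.3.3 (glmQLFit, glmQLFTest, two-sided, TMM, filterByExpr, Benjamini-Hochberg over 15557 genes, adjusted p of 0.05), and 385 genes were left out. SE is the log2 fold change divided by the square root of F, and 95% intervals use the test's degrees of freedom (median 31110, 8.23 with the trend removed). The biological coefficient of variation was 4.47%. Replicates were not copies of each other (chi-square per degree of freedom 2.88 for siUPF1 and 1.71 for siLuc). The 10 genes had 631 to 2993 counts per library, and the part of counting error in their spread was not worked out. The density trend was a loess fit (span 0.3) of each library's log2 deviation on log2 reads per base, removed through offsets. Tested on simulated data for siUPF1 against siLuc, with 200 of 15557 genes changed, the test recovered 90% of 2-fold and 69% of 1.41-fold changes with 7 false calls. All changes of the 10 genes are smaller than those simulated.

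The members, lists and alternatives were chosen with earlier results of these data known. The text names UPF1, all 10 members and the 3 genes of smallest p in each list. MFSD11, PSENEN, GATC and the other overlapping genes named were added after values were seen. Alternatives were DESeq2 1.42.0, limma-voom (3.58.1), scaling by RLE or by library size alone, no filter, 5 CPM in 2 libraries, an adjusted p of 0.1, each library left out (the lone library is then taken to vary like the other group) and the trend removed. Transcript classes, overlaps and sequences come from GENCODE release 29 on GRCh38, and coordinates are left out because the table has none. The blood markers and the other reading-frame ends are not reported here.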

Additional observations from a re-analysis of the deposited data

How the results depend on the processing

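Of the 10 genes, 0 rose under each of the 12 alternatives. At an adjusted p of 0.05 the count of fallers was 2. It was 4 at an adjusted p of 0.1, where 3059 of all tested genes rose and 2026 fell. The count was 0 with DESeq2 (1 unadjusted), 1 with limma-voom (SRSF2) and 0 after removal of the density trend (1 unadjusted). Leaving out 1 library gave 0 to 3. Over all genes 2613 rose and 1422 fell, against 1280 and 467 with DESeq2, and leaving out 1 library gave 1443 to 2760 risen and 553 to 1527 fallen. UPF1 passed under all 12, between -1.80 and -1.44. The median of the 10 genes ranged from -0.17 without siUPF1 replicate 1 to -0.06 with the trend removed. Signs turned for SRSF10 (-0.0023) and TRA2B (-0.017) without siUPF1 replicate 1 (without replicate 2 they stood at 0.072 and 0.11) and for SRSF3 (0.0059, and -0.17 without replicate 1) without siUPF1 replicate 2, none of which passed either way. The adjusted p ranged over the alternatives from 0.00834 to 0.274 for SRSF2 and from 0.0169 to 0.473 for SRSF5, highest without siLuc a in both. The cause of these differences was not tested beyond the alternatives' own construction: leaving out a library leaves fewer samples. No paired analysis was possible because the siLuc columns carry no replicate numbers that can be told apart. Counts per gene do not separate transcripts, so a change of the poison-exon forms that leaves the count of a gene within its interval could not be seen.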
